A study of Mus musculus with 6 samples.

Results

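RNA sequencing of C2C12 myotubes was examined for 10 genes of calcium-dependent signalling: the 4 genes of Ca2+/calmodulin-dependent protein kinase II (CaMKII; *Camk2a*, *Camk2b*, *Camk2d* and *Camk2g*), 2 genes of the catalytic subunit of calcineurin (*Ppp3ca* and *Ppp3cb*), 3 genes of the NFAT transcription factors (*Nfatc1*, *Nfatc2* and *Nfatc3*), and the calcineurin regulator *Rcan1*. The genes were taken by symbol from the deposited table of gene counts. All 10 were found, each on 1 row, among 55401 genes. All 10 had enough estimated counts to be tested, among 17310 genes in all.

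C2C12 is a line of mouse myoblasts, which fuse to myotubes once serum is lowered. The 6 libraries came from cells 2 d after the change to differentiation medium with 2% horse serum. Controls 1, 2 and 3 are labelled wild type. The study describes its control cells as having received a plasmid with Cas9, ZsGreen and a guide that matches no mouse sequence. Its authors state that they did not exclude an effect of double-strand breaks themselves. *Phf2* KO 1, 2 and 3 came from cells that received 4 pooled ZsGreen plasmids with CRISPR/Cas9 guides against *Phf2*, which encodes a histone H3K9 demethylase. Both populations were collected by cell sorting, were not described as single clones, and were plated as wells of a single experiment. The p-values therefore measure the spread between wells, and differences between the 2 sorted populations cannot be told apart from effects of *Phf2*.

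Calcium released into the cytoplasm of a muscle cell binds calmodulin, which then activates both CaMKII, a kinase, and calcineurin, a phosphatase. Calcineurin removes phosphates from NFAT proteins, which then enter the nucleus and bind DNA, while kinases such as GSK3 and the DYRK family send NFAT back out. In skeletal muscle the pathway is best known for maintaining genes of slow, oxidative fibers, and CaMKII for acting on calcium handling and on class II histone deacetylases.

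The libraries held between 52526109 and 67502788 estimated counts. The level of *Phf2* was 100.8 ± 4.73 CPM (counts scaled to library size) in the control and 39.1 ± 1.78 CPM in the KO libraries (mean ± SD, n = 3 each), with KO libraries at 38.8% of control. All KO libraries lay below all control libraries (log2 fold change -1.37, SE 0.0553, adjusted p = 8.32e-09). The guides cut the gene and need not remove its transcript, so this level checks the labels only in part. Here and below, CPM are scaled by TMM (a factor for library composition), and adjusted p-values are from the quasi-likelihood test of edgeR with Benjamini-Hochberg adjustment over the 17310 genes. The threshold was 0.05. Across all genes 1122 passed, or 6.48%, with 557 higher (3.22%) and 565 lower (3.26%) in KO cells.

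Of the 10 genes, *Camk2a* was the only one past the threshold, and it fell in KO cells. The other 9 did not pass the test. That is 1 of 10 beside 6.48% of all genes, and 1 of 10 lower beside 3.26%. None was called higher, and exactTest, DESeq2 and limma-voom called *Camk2a* alone as well. Before adjustment, p was under 0.05 for 2 of the 10 genes, *Camk2a* and *Camk2d*, beside 3366 of the 17310 genes tested. The sign was positive for 5 genes and negative for 5, with a median log2 fold change of -0.00119 against -0.000958 over all genes tested. The KO and control libraries did not overlap for 3 genes, *Camk2a*, *Camk2d* and *Nfatc2*, beside 25.1% of all genes tested.

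**Figure D1:**
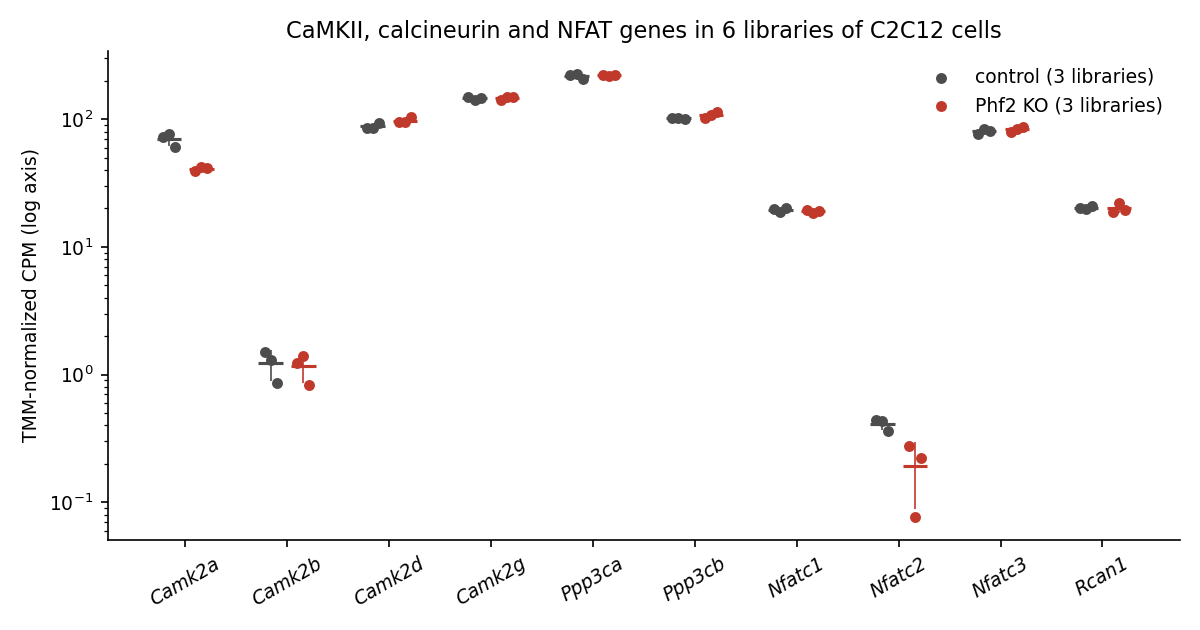
TMM-normalized CPM (log axis) of the 10 genes in each of the 3 control (grey) and 3 *Phf2* KO (red) libraries of C2C12 cells. Points are libraries, horizontal lines are means and vertical lines are ± 1 SD. The KO libraries of *Camk2a* lie between 39.6 and 42.1 CPM, below the 60.5 CPM of the lowest control.

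**Figure D2:**
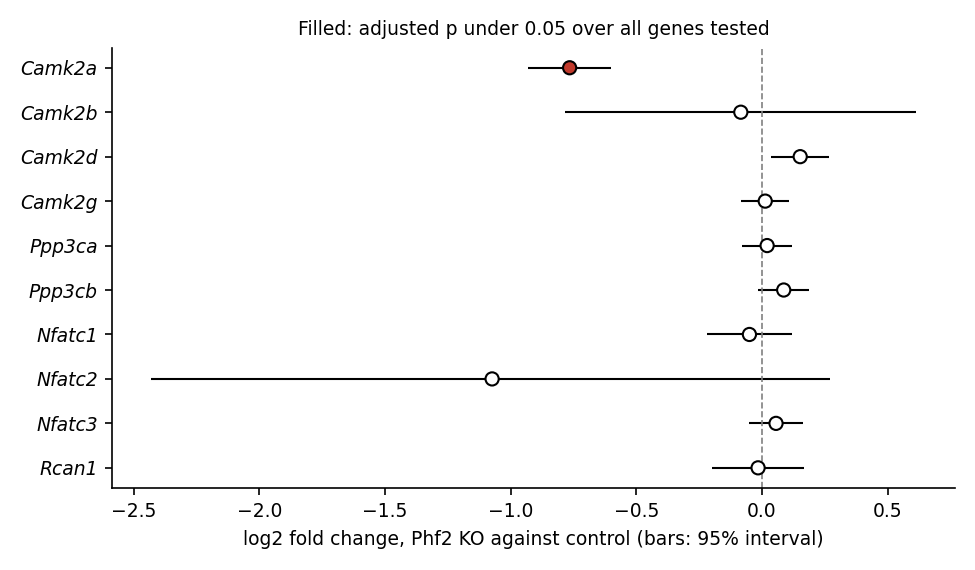
Log2 fold change (*Phf2* KO against control, x axis) of the 10 genes with 95% intervals from the quasi-likelihood fit, 3 libraries a group. The filled point, *Camk2a*, is past an adjusted p of 0.05, and the intervals of *Camk2b* and *Nfatc2*, the genes with the fewest counts, are the widest.

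*Camk2a* encodes the alpha chain of CaMKII, the isoform best known from neurons, and its gene also encodes alphaKAP, a protein of skeletal muscle that anchors CaMKII and lacks the kinase domain. The gene (ENSMUSG00000024617.16) lies on the plus strand of mouse chromosome 18 from 60925618 to 60988152 (GRCm38, the assembly of mm10). Its level was 72.6, 76.0 and 60.5 CPM in controls 1, 2 and 3, and 39.6, 42.1 and 41.4 CPM in KO 1, 2 and 3. Control 3 was the lowest control, and the KO libraries stood close together below it. The mean was 69.7 ± 8.15 CPM in control and 41.0 ± 1.28 CPM in KO cells, or 58.8% of control (log2 fold change -0.77, SE 0.0762, 95% interval -0.93 to -0.60, adjusted p = 9.35e-05). Leaving out each library in turn gave log2 fold changes from -0.86 to -0.70 and adjusted p-values up to 0.00362. *Camk2a* is a gene that the study names from these same samples, so its fall here is not independent evidence.

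Like *Camk2a*, markers of muscle cells were lower in KO cells, a difference between the groups that they share. Of 8 skeletal muscle markers (*Myod1*, *Myog*, *Des*, *Ckm*, *Acta1*, *Mymk*, *Myh3* and *Chrna1*), 6 were called lower, beside 3.26% of all genes tested, and none higher, and none was at 0. *Myog*, *Mymk* and *Myh3* are among the genes that the study names from these same samples. The summed level of the 8 markers ran from 7008 to 8095 CPM in control and from 5600 to 6106 CPM in KO libraries. The part of this difference in the fall of *Camk2a* was not tested, and in bulk RNA fewer differentiated cells cannot be told apart from less RNA per cell. The study reports no significant difference in myotube diameter, and no effect on myotube area or fusion index, at a later day than that of these libraries. Markers of neurons, the cell type in which *Camk2a* is most abundant, summed to between 47.1 and 48.5 CPM in control and between 38.4 and 40.1 CPM in KO libraries. Of the 8 neuron markers 5 were below 1 CPM in every library, *Gad1* was at 0, 4 could be tested and 1, *Stmn2*, was called lower. *Stmn2* made up most of the sum, at 35.5 to 38.6 CPM in control and 28.1 to 30.4 CPM in KO libraries.

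The deposited tables also list loci that StringTie assembled from the reads of each library without a reference name, and at *Camk2a* they covered the 3' part of the gene. In 0 of 6 libraries did an assembled locus on the plus strand reach the first exon of *Camk2a-201*, the longest coding transcript of GENCODE M21 with 489 codons and 19 exons. The locus with the highest level began 37699 bases downstream of the start of *Camk2a-201* in control 1, 37922 bases in controls 2 and 3 and in KO 2, 37761 bases in KO 3, and 32976 bases in KO 1. The position 37922 bases downstream, 60963554, is exactly the annotated start of *Camk2a-204*, a transcript with 7 exons and 200 codons. In all 6 libraries the assembled locus of *Ppp3cb* likewise ran from 20499364 to 20546573, the annotated limits of that gene. Whether the annotation guided the assembly was not tested, so the match is not separate evidence from the reads for that start. Upstream of position 60963554 lie 12 of the 19 exons and 64.3% of the coding sequence of *Camk2a-201*, the end that encodes the kinase domain. *Camk2a-204* and *Camk2a-202*, which has 6 exons and 189 codons, share 87.3% and 86.6% of their coding bases with *Camk2a-201*. They begin in the part of the gene from which alphaKAP is known to be made. Any second locus on the same strand reached at most 2.20 TPM, a level corrected for transcript length.

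**Figure D3:**
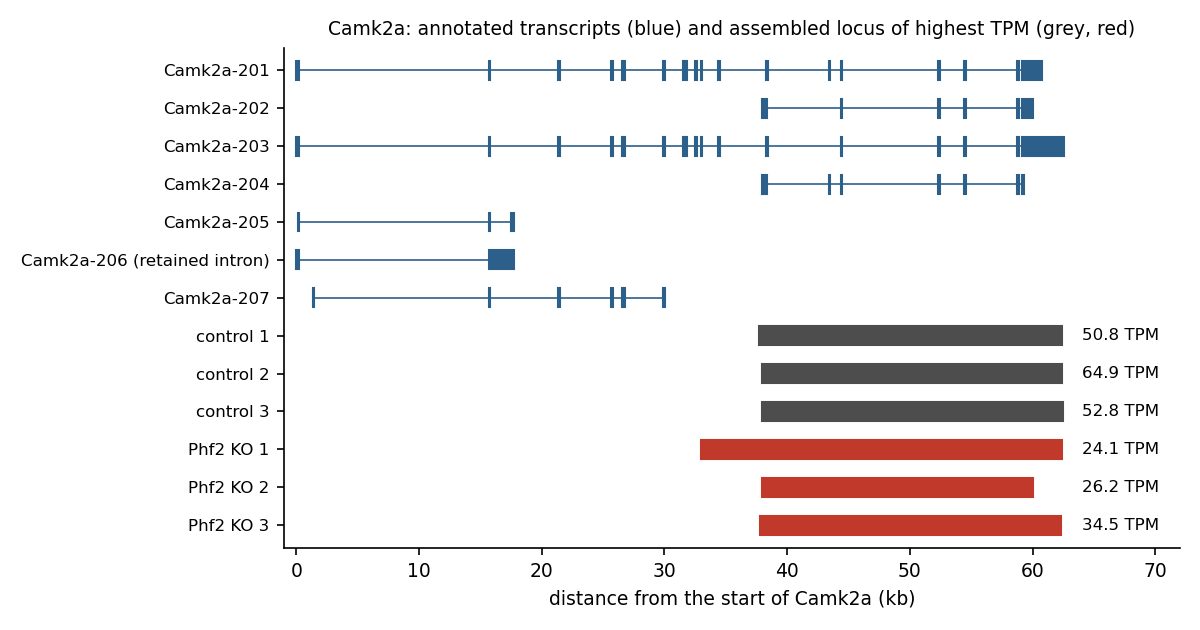
Annotated *Camk2a* transcripts (blue, exons as boxes, GENCODE M21) and the assembled locus with the highest TPM in each control (grey) and *Phf2* KO (red) library, against distance from the start of the gene in kb. In every library the locus begins past 30 kb, and its TPM is written at the right.

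The TPM of this locus was 50.8, 64.9 and 52.8 in controls 1, 2 and 3 and 24.1, 26.2 and 34.5 in KO 1, 2 and 3. The groups did not overlap, and the mean was 56.2 ± 7.64 in control and 28.3 ± 5.47 in KO libraries, or 50.3% of control. A two-sided exact permutation test gave p = 0.1, the smallest that 3 libraries against 3 allow. For *Camk2d*, *Camk2g*, *Ppp3ca*, *Ppp3cb*, *Nfatc3* and *Rcan1*, an assembled locus did cover the first exon of the longest coding transcript in 6 of 6 libraries. For *Nfatc1* this held in 5 of 6 libraries, KO 3 being the exception, and for *Camk2b* and *Nfatc2*, the genes of lowest level, in 0 of 6. The assembly settings are not given in the sources used here, and a locus without the first exon does not show that no long transcript was present. Since it was not tested whether the annotation guided the assembly, a covered first exon is not separate evidence from the reads either.

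By the root mean square difference of centred log2 CPM over the 6 libraries among 10917 genes, the genes nearest to *Camk2a* were *Pgm5* (0.0544), *Ppfia4* (0.0634), *Smpx* (0.0716), *Slc4a3* (0.0743) and *Frmpd1* (0.0747). Their log2 fold changes in KO cells lay between -0.81 and -0.64, all past the threshold. *Pgm5* and *Smpx* encode proteins of the muscle cytoskeleton and its attachments. The difference between the groups makes up most of such a pattern, so the likeness is a description.

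The other CaMKII genes did not pass the test. *Camk2g* (chromosome 14, 20734875 to 20794088, minus strand), whose gamma chain is found in most tissues, had 148.9, 141.1 and 147.5 CPM in the controls and 142.6, 148.5 and 150.4 CPM in the KO libraries. The groups overlapped (log2 fold change 0.01, SE 0.0442, 95% interval -0.08 to 0.11, adjusted p = 0.922). *Camk2d* (chromosome 3, 126596302 to 126846326, plus strand), whose delta chain is the main form in heart, had 85.8, 84.9 and 92.9 CPM in the controls and 94.3, 94.7 and 103.9 CPM in the KO libraries. Every KO library was above every control, by little, and KO 3 was the highest. The log2 fold change was 0.15 (SE 0.0537, 95% interval 0.04 to 0.27, unadjusted p = 0.0135) with an adjusted p of 0.121, or 0.0546 when the replicate block was fitted. *Camk2b* (chromosome 11, 5969644 to 6066362, minus strand), whose beta chain binds actin and which is the other abundant form in neurons, stayed between 0.827 and 1.51 CPM in all 6 libraries. Its interval, from -0.78 to 0.61 on the log2 scale, was too wide to show or exclude a change of the size seen for *Camk2a* (log2 fold change -0.08, SE 0.325, adjusted p = 0.933).

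The catalytic genes of calcineurin were among the highest of the 10 and did not pass the test. *Ppp3ca* (chromosome 3, 136670124 to 136937727, plus strand), the alpha subunit, had 222.4, 227.5 and 204.7 CPM in the controls and 222.7, 219.2 and 222.1 CPM in the KO libraries. All KO values lay within the range of the controls (log2 fold change 0.02, SE 0.0468, 95% interval -0.08 to 0.12, adjusted p = 0.876). *Ppp3cb* (chromosome 14, 20499364 to 20546573, minus strand), the beta subunit, had 102.1, 102.4 and 100.9 CPM in the controls and 102.2, 108.7 and 113.4 CPM in the KO libraries. KO 1 lay among the controls and the other two above them (log2 fold change 0.09, SE 0.0471, 95% interval -0.01 to 0.19, adjusted p = 0.349). For these genes, for *Camk2g* and for *Nfatc3* the intervals allow a change of at most 0.19 on the log2 scale, so a fall of the size seen for *Camk2a* lay outside them.

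Of the NFAT genes, *Nfatc3* (chromosome 8, 106058840 to 106130537, plus strand) had the highest level, with 77.1, 83.3 and 80.8 CPM in the controls and 79.9, 83.6 and 87.3 CPM in the KO libraries. The groups overlapped (log2 fold change 0.06, SE 0.0507, 95% interval -0.05 to 0.17, adjusted p = 0.626). *Nfatc1* (chromosome 18, 80606205 to 80713071, minus strand), the factor whose nuclear entry is most often used as a sign of calcineurin activity in slow fibers, had 19.7, 18.9 and 20.3 CPM in the controls and 19.5, 18.4 and 19.0 CPM in the KO libraries. The groups overlapped here too (log2 fold change -0.05, SE 0.0791, 95% interval -0.22 to 0.12, adjusted p = 0.81). RNA levels do not show where the NFAT proteins were in the cell or whether they were phosphorylated.

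*Nfatc2* (chromosome 2, 168476410 to 168601657, minus strand), a factor known for its part in the growth of myotubes by fusion, was near the lower limit of the data. Its estimated counts were 25, 25 and 21 in the controls and 17, 4 and 15 in the KO libraries, where a pair of reads adds about 4. These correspond to 0.438, 0.429 and 0.361 CPM and to 0.276, 0.0762 and 0.222 CPM. Every KO library was below every control, and KO 2 rests on about 1 pair of reads. The log2 fold change was -1.07 with an SE of 0.628 and an interval from -2.43 to 0.27 (adjusted p = 0.39). A difference was not detectable at this depth.

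*Rcan1* (chromosome 16, 92391953 to 92470867, minus strand) encodes a protein that binds and inhibits calcineurin, and is widely used as a readout of the pathway because NFAT sites near an internal start drive 1 of its transcripts. It had 20.1, 19.97 and 20.9 CPM in the controls and 18.9, 22.1 and 19.4 CPM in the KO libraries. The groups overlapped, with KO 1 the lowest and KO 2 the highest of the 6 libraries (log2 fold change -0.02, SE 0.0845, 95% interval -0.20 to 0.17, adjusted p = 0.955). The annotation gives *Rcan1-202* with 251 codons from the upstream start and *Rcan1-201* with 198 codons from the internal start, 66069 bases further on. In each library a single assembled locus spanned both starts. The gene's count joins both transcripts, so a change in it could not be assigned to either start.

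The 250 bases before these starts, as RefSeq places them, are shown because they are where an NFAT-driven change would be sought (GRCm38.p6, minus strand of chromosome 16, read 5′ to 3′ toward the start). Capitals mark the NFAT core GGAAA or its reverse complement TTTCC. The first window is chr16:92400079-92400328 and the second is chr16:92466170-92466419.
Rcan1 internal start: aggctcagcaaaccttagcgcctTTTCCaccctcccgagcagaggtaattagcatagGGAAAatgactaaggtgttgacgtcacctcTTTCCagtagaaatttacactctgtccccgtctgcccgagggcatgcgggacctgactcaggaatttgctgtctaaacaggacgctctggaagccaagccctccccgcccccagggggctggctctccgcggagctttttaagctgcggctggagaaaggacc
Rcan1 upstream start: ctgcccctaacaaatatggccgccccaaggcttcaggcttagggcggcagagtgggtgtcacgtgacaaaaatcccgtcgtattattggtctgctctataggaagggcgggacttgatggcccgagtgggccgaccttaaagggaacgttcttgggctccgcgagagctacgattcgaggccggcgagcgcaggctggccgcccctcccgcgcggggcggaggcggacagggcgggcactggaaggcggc

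The internal window held 3 cores, 227, 193 and 163 bases before the start, and the upstream window held 0. At least 3 cores were found in 6.39% of the 32851 RefSeq promoter windows of this length, and at least 1 in 55.6%, on either strand. Of the 10 genes 6 matched the promoter table, with 9 windows. Besides *Rcan1*, the *Ppp3cb* window and 1 of the 2 *Nfatc2* windows held 3 cores, the other *Nfatc2* window, the *Camk2d* window and 1 of the 2 *Nfatc3* windows held 1, and the rest held 0. None of the 9 windows held the E-box CAGCTG, which 13.0% of all windows held, or a match to the MEF2 consensus, which 2.92% held. These matches are of letters only.

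Levels of different genes were compared per length, as TPM of the reference gene. In control cells *Ppp3ca* was highest at 101.5 TPM, followed by *Camk2g* at 81.0, *Ppp3cb* at 72.1, *Camk2a* at 41.3, *Camk2d* at 38.5, *Nfatc3* at 24.4, *Rcan1* at 19.0, *Nfatc1* at 9.30, *Camk2b* at 0.279 and *Nfatc2* at 0.0611. The ranges over the 3 control libraries overlapped between *Camk2g* and *Ppp3cb* and between *Camk2a* and *Camk2d*, and no others of these neighbours overlapped. These TPM depend on how reads were shared among transcripts of different length. *Camk2g* varied from 68.8 to 91.3 TPM over the 6 libraries while its CPM stayed between 141.1 and 150.4. For *Ppp3cb* the TPM of the KO libraries (77.1 to 88.3) lay above those of the controls (65.3 to 76.1), whereas its CPM overlapped.

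*Camk2a* made up 22.9%, 29.8% and 24.5% of the TPM of the CaMKII genes in controls 1, 2 and 3, and 12.8%, 17.7% and 14.0% in KO 1, 2 and 3. The share was lower in every KO library, and its mean was 25.7% ± 3.61 in control and 14.8% ± 2.57 in KO cells (SD, n = 3 each; two-sided exact permutation p = 0.1, the smallest possible, and 0.367 after Benjamini-Hochberg adjustment over 11 shares). The shares of *Camk2d* and *Camk2g* were 23.9% ± 2.18 and 50.2% ± 3.98 in control and 29.3% ± 3.15 and 55.7% ± 1.90 in KO cells (exact permutation p = 0.1 and 0.2). Shares of a family are parts of a fixed whole, so a lower share of *Camk2a* raises the others. These rises are therefore not separate results, and by CPM the groups of *Camk2g* overlapped (log2 fold change 0.01). With the assembled loci in place of the reference genes, the share of *Camk2a* was 29.6% ± 4.22 in control and 16.5% ± 1.90 in KO cells. The 4 genes summed to 161.1 ± 6.05 TPM in control and 148.8 ± 19.0 TPM in KO cells, a difference within the spread of the KO libraries. By TPM per gene, the CaMKII transcripts of these myotubes were mainly of the gamma, alpha and delta genes, with *Camk2b* at 0.173% ± 0.0483 in control. The assembled *Camk2a* locus lay in the 3' part of its gene in every library. The share of *Camk2a* may therefore include transcripts that lack the kinase domain.

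**Figure D4:**
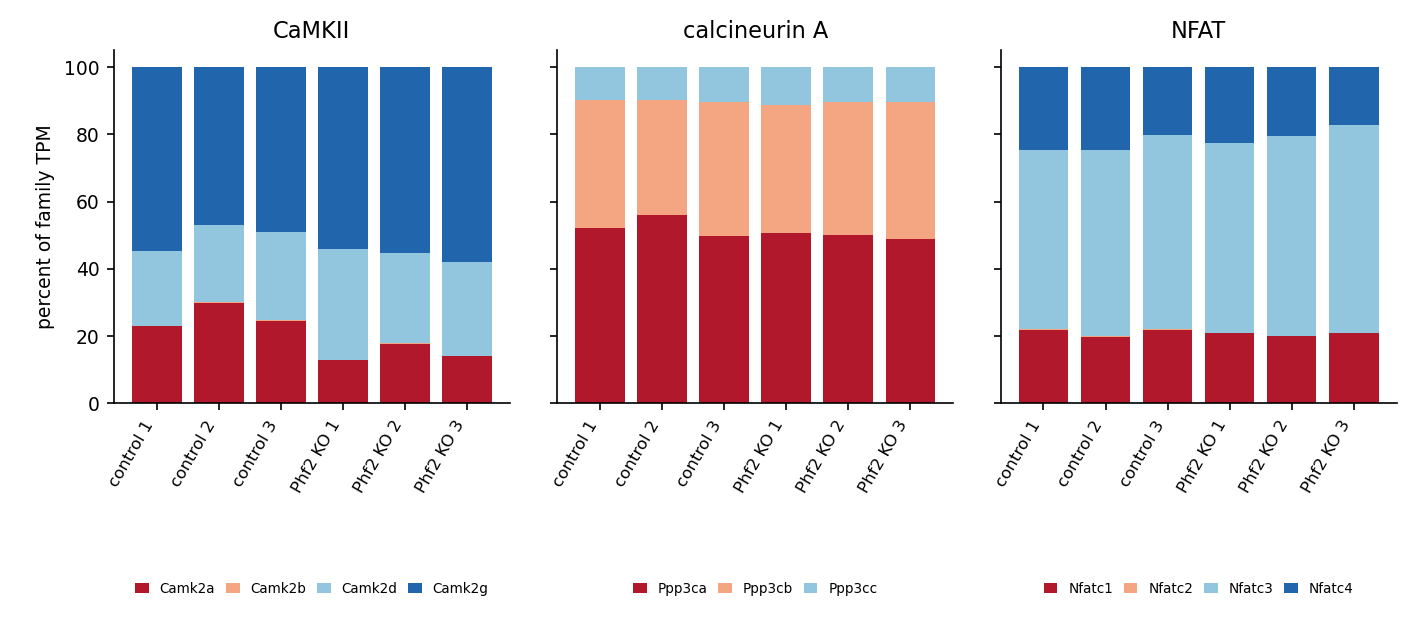
Percent of the summed TPM of the CaMKII, calcineurin A and NFAT families taken by each gene, as stacked bars for each of the 3 control and 3 *Phf2* KO libraries. The share of *Camk2a* is between 22.9% and 29.8% in control and between 12.8% and 17.7% in KO libraries.

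In the 2 other families no share reached the smallest p except that of *Nfatc2*, a gene at 0.139% ± 0.0167 of the NFAT transcripts in control and 0.0675% ± 0.0434 in KO cells (exact permutation p = 0.1). Of the calcineurin A transcripts, *Ppp3ca* took 52.7% ± 3.04 in control and 49.9% ± 0.789 in KO cells, *Ppp3cb* 37.4% ± 2.73 and 39.5% ± 1.28, and *Ppp3cc*, the gamma subunit, 9.92% ± 0.363 and 10.7% ± 0.536. Of the NFAT transcripts, *Nfatc3* took 55.5% ± 2.13 in control and 59.4% ± 2.72 in KO cells, *Nfatc4* 23.2% ± 2.46 and 20.03% ± 2.77, and *Nfatc1* 21.2% ± 1.23 and 20.5% ± 0.562. The adjusted p of each share was at least 0.367, and the design could not reach 0.05 for any of them.

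Other genes of the pathway were taken from 5 lists with 63 genes, of which 54 could be tested. Of these, 10 passed the threshold, or 18.5% beside 6.48% of all genes tested, with 2 higher and 8 lower, and 6 of the 10 were effectors and target genes in muscle. The median log2 fold change over the 54 genes was -0.04. The calls varied with the libraries, and from 2 to 9 genes passed when 1 library was left out. Over all genes 468 to 1039 passed in these fits, beside 1122 with all libraries, so calls were lost generally. The 10 genes kept their signs in each of them. The lists were chosen with results of these data known, and the shares are descriptions.

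Among 11 tested partners and regulators of calcineurin, the median was 0.03. None was called higher, beside 3.22% of all genes tested, and 1 lower, beside 3.26%. That gene was *Myoz2*, which encodes calsarcin-1, a protein that ties calcineurin to the Z-disc. It had 30.2, 30.5 and 25.1 CPM in the controls and 24.1, 19.7 and 20.1 CPM in the KO libraries, and each KO library was below each control (log2 fold change -0.42, SE 0.0986, adjusted p = 0.0204). It did not pass without control 1, control 2, KO 2 or KO 3 (adjusted p from 0.0787 to 0.117). The gene with the next smallest p, *Rcan2*, a relative of *Rcan1*, stood at 5.74 ± 0.544 CPM in control and 7.61 ± 1.20 CPM in KO cells and did not pass (log2 fold change 0.41, adjusted p = 0.143). *Ppp3r2* and *Myoz3* were too low to test.

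For 12 tested genes of calmodulin and other calmodulin-dependent kinases, the median was -0.06. None was called higher, beside 3.22% of all genes tested, and 1 lower, beside 3.26%. *Ppm1e*, a phosphatase that acts on CaM kinases, had 9.17, 10.6 and 9.48 CPM in the controls and 5.25, 7.44 and 7.49 CPM in the KO libraries (log2 fold change -0.54, SE 0.15, adjusted p = 0.0491). The call was lost when any 1 library was left out, with adjusted p-values from 0.0776 to 0.215, and with exactTest and limma-voom. *Pnck*, *Camk4* and *Camkv* were too low to test.

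All 9 other NFAT factors and NFAT kinases were tested, with a median of -0.08. With the quasi-likelihood test 0 of them passed, beside 6.48% of all genes tested. For 2 of them the unadjusted p was under 0.05, beside 3366 of the 17310 genes tested, and exactTest, DESeq2 and limma-voom called 0 as well. The 2 with the smallest p were *Gsk3b*, at 154.4 ± 6.19 CPM in control and 167.8 ± 3.31 CPM in KO cells (log2 fold change 0.12, adjusted p = 0.153), and *Dyrk2*, at 142.4 ± 6.30 and 130.4 ± 6.10 CPM (log2 fold change -0.13, adjusted p = 0.165). Both encode kinases that phosphorylate NFAT. *Nfatc4*, the remaining calcineurin-dependent factor, stood at 15.8 ± 1.14 CPM in control and 14.5 ± 1.71 CPM in KO cells (log2 fold change -0.13, adjusted p = 0.575).

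For 10 tested genes of calcium entry and IP3 receptors, the median was 0.06. Of them 1 was called higher, beside 3.22% of all genes tested, and 1 lower, beside 3.26%. *Stim1*, the calcium sensor of the endoplasmic reticulum that opens store-operated channels, had 48.3, 45.3 and 45.6 CPM in the controls and 57.5, 56.1 and 53.2 CPM in the KO libraries. Each KO library was above each control (log2 fold change 0.26, SE 0.056, adjusted p = 0.0129), and the call was lost without control 2 (adjusted p = 0.075) or without KO 2 (0.0617). *Itpr3*, an IP3 receptor that releases calcium from that store, had 142.0, 144.7 and 149.9 CPM in the controls and 119.6, 130.3 and 132.1 CPM in the KO libraries. It was lower in each KO library (log2 fold change -0.19, SE 0.0484, adjusted p = 0.0295), but the call was lost when any 1 library was left out, with adjusted p-values from 0.0585 to 0.135, and limma-voom did not call it. A further 3 genes of the list were too low to test.

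Of 12 tested effectors and target genes of the pathway in muscle, 5 were called lower, beside 3.26% of all genes tested. The median was -0.25, and 1 was called higher, beside 3.22%. Besides *Tnnc1*, described below, *Ppargc1a*, *Hdac4*, *Hdac5*, *Il4* and *Myf5* were not called (log2 fold changes from -0.35 to 0.35, adjusted p from 0.282 to 0.89). ExactTest called 5 lower and 1 higher, DESeq2 6 and 1, and limma-voom 5 and 0. *Atp2a2* was not called by exactTest or limma-voom and *Ptgs2* not by limma-voom, whereas all 3 of these tools called *Tnnc1*, the slow troponin C, which missed the threshold here (log2 fold change -0.47, adjusted p = 0.0526). *Mb* (myoglobin) had 71.1, 68.5 and 59.9 CPM in the controls and 34.3, 34.1 and 33.6 CPM in the KO libraries (log2 fold change -0.97, SE 0.0662, adjusted p = 3.45e-06). *Myh2*, the myosin heavy chain of fast oxidative fibers, had 38.6, 34.6 and 31.7 CPM in the controls and 19.4, 17.2 and 19.8 CPM in the KO libraries (log2 fold change -0.89, SE 0.0873, adjusted p = 5.24e-05). Both calls held when each library was left out in turn, with adjusted p-values up to 0.000299 for *Mb* and 0.00115 for *Myh2*.

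The slow-fiber genes named from this list were lower in each KO library as well. Their calls depended on the libraries, but with 1 library left out *Myh7* (log2 fold change -1.01 to -0.75) and *Tnni1* (-0.63 to -0.48) stayed lower. The fall was not limited to slow-fiber genes, since *Myh2* above and the muscle marker *Ckm* (log2 fold change -0.78, adjusted p = 8.7e-05) were lower too. *Myh7*, the slow myosin heavy chain, had 91.1, 94.8 and 64.3 CPM in the controls and 45.5, 45.1 and 47.7 CPM in the KO libraries (log2 fold change -0.85, SE 0.158, adjusted p = 0.0415). Control 3 was far below the other controls, and of the fits that leave out 1 library *Myh7* passed only in the one without it (adjusted p = 4.89e-07), with values from 0.0563 to 0.175 in the others and 0.0873 with the replicate block. *Tnni1*, the slow troponin I, stood at 347.5 ± 37.1 CPM in control and 238.7 ± 23.2 CPM in KO cells (log2 fold change -0.54, SE 0.097, adjusted p = 0.0219) and did not pass without control 1, KO 2 or KO 3 (adjusted p from 0.0564 to 0.106). The fifth gene called lower, *Atp2a2*, encodes the slow calcium pump of the sarcoplasmic reticulum. It was named after its values were seen, and stood at 487.9 ± 14.8 CPM in control and 439.8 ± 13.2 CPM in KO cells (log2 fold change -0.15, adjusted p = 0.0445, with values from 0.0565 to 0.199 when any library but control 3 was left out).

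*Myh2*, *Myh7* and *Tnni1* are among the genes that the study names from these samples. By qRT-PCR the study also reports impaired induction of *Myh2* and *Myh7* in KO myotubes. It further reports more dimethylation of H3K9 at the *Myh7* promoter in KO cells, at a later day than that of these libraries. The summed level of the muscle markers above was also lower in each KO library, and the part of those markers in these differences was not tested. The gene called higher, *Ptgs2*, an inducible enzyme of prostaglandin synthesis, was named after its values were seen. It had 25.7, 26.3 and 31.6 CPM in the controls and 31.3, 36.9 and 39.1 CPM in the KO libraries, so control 3 and KO 1 overlapped (log2 fold change 0.36, SE 0.0979, adjusted p = 0.0469, from 0.159 to 0.195 without control 1, control 2, KO 2 or KO 3). *Il6* was too low to test.

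**Figure D5:**
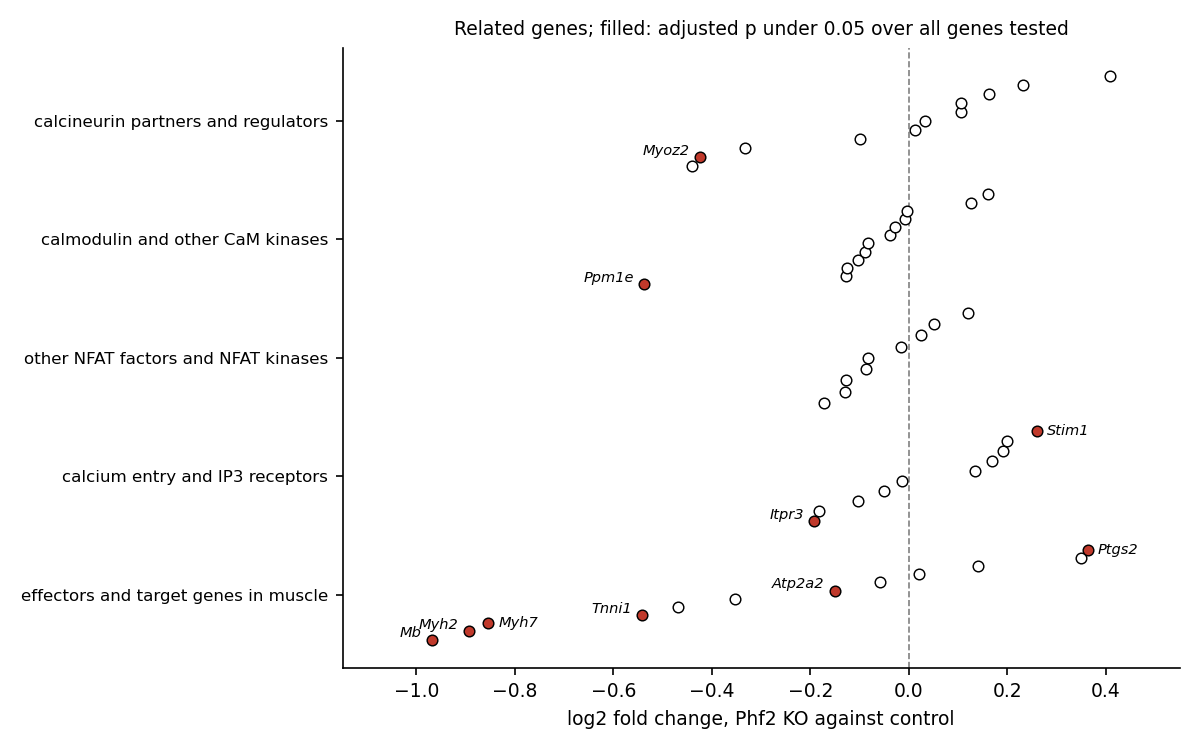
Log2 fold change (*Phf2* KO against control, x axis) of the 54 tested genes of the 5 lists, 1 row of points a list and 3 libraries a group. Filled points with names are past an adjusted p of 0.05, and 6 of the 10 lie among the effectors and target genes in muscle.

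Markers of other cell types had low sums, or sums that differed between the groups with 1 gene called. Leukocyte markers summed to between 2.61 and 3.16 CPM in control and between 2.23 and 2.55 CPM in KO libraries, with *Adgre1* at 0 and 7 of 8 below 1 CPM. Heart muscle markers summed to between 20.2 and 28.3 CPM in control and between 13.1 and 14.0 CPM in KO libraries, with *Tbx5* at 0 and 1 of 3 tested genes, *Myh6*, called lower. Most of that sum was *Myh6*, at 18.7 to 26.3 CPM in control and 10.9 to 11.9 CPM in KO libraries. Fibroblast and adipocyte markers summed to between 4804 and 5266 CPM in control and between 5512 and 6065 CPM in KO libraries, with *Plin1* and *Lep* at 0 and 1 of 4 tested genes, *Col1a1*, called higher. *Col1a1* made up most of this sum, at 4325 to 4722 CPM in control and 4886 to 5408 CPM in KO libraries. *Pdgfra*, *Dcn* and *Lum* were not called, with log2 fold changes of 0.14, 0.21 and -0.21. The part of these markers in the results for *Camk2a* and the related genes was not tested.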

How the data were processed

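Directional libraries of poly(A) RNA were sequenced as paired reads, aligned to mm10 with HISAT2 and quantified with StringTie by the authors (versions and annotation not given in the sources used here). The deposited matrix holds estimated counts per gene without scaling by library size. They follow coverage times length, so that a pair of reads adds about 4. The TPM signal of each library, scaled by the authors, was read from separate deposited tables, which list reference genes and again the loci assembled from the reads. Totals of estimated counts were between 52526109 and 67502788, and intervals cover the spread between libraries only.

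The filter was filterByExpr with a minimum count of 10. Scaling was by TMM, and the quasi-likelihood test of edgeR 4.0.16 (robust, prior count 0.125) was run in R 4.3.3. The common biological coefficient of variation was 0.135. The methods of the study name exactTest, which was an alternative beside DESeq2 1.42.0, limma-voom (limma 3.58.1), other scalings and filters, the replicate block, counts divided by 4 or summed per symbol, limma on log2(TPM + 1) and log2(TPM + 0.1), and leaving out each library. Limma fits without a trend of the variance and shares of the TPM of assembled loci were chosen after seeing the data. Shares of TPM and the TPM of the *Camk2a* locus were compared by two-sided exact permutation tests over the 6 libraries (20 regroupings) in Python 3.11.15 with scipy 1.17.1. Gene models are from GENCODE M21 (GRCm38). The procedure was tested on simulated data.

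Control and KO libraries that share a replicate number deviated from their groups more alike than those of other pairs. Deviations from group means were correlated over 10923 genes that averaged 5 CPM or more, giving 0.235, 0.258 and 0.168 for the pairs that share a number and at most -0.00193 for the others. Genes are not independent of each other. Centring within each group also ties these values together, so positive ones for some pairs bring negative ones for others. The study describes no pairing, so the block was an alternative.

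The members, lists and tests were chosen with earlier results of these data known. Named were the 10 genes, *Phf2*, *Ppp3cc* and *Nfatc4*, of each list at most 4 genes past the threshold with the largest changes or, where fewer than 2 passed, the 2 with the smallest p, and the 5 genes most like *Camk2a* among those averaging 5 CPM or more. *Atp2a2*, *Ptgs2*, *Tnnc1*, *Ppargc1a*, *Hdac4*, *Hdac5*, *Il4* and *Myf5* were named outside this rule, after their values were seen. Marker genes and genes too low to test were named as list members. Some list members that the rule names are not reported here. The raw reads were not used here.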

Additional observations from a re-analysis of the deposited data

How the results depend on the processing

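*Camk2a* stayed below control and past the threshold under 11 of 15 alternatives and without each library, and *Phf2* did under all of them. In limma fits on TPM the log2 fold change of *Camk2a* was -0.89 with a pseudocount of 1 (adjusted p = 0.103, or 0.162 without a trend of the variance) and -0.92 with 0.1 (0.0915, or 0.215 without the trend), and 0 of the 10 genes passed in each of these 4 fits. With a pseudocount of 1, 1 related gene and 127 of all genes passed, and with 0.1, 2 and 153. Without the trend, 0 related genes and 4 of all genes passed with either pseudocount. The cause was not tested. Leaving out 1 library gave 2 to 9 related genes and 468 to 1039 of all genes, with 3, 3, 2 and 3 related genes without control 1, control 2, KO 2 and KO 3, and 468, 577 and 613 of all genes without control 2, KO 2 and KO 3. The signs of *Camk2b* (-0.29 to 0.11), *Camk2g* (-0.0104 to 0.036), *Ppp3ca* (-0.0256 to 0.0516) and *Rcan1* (-0.0865 to 0.0277) turned between these fits, none of them past the threshold. With the replicate block, 1 of the 10 genes, 10 related genes and 1316 of all genes passed. The block lost the call of *Myh7* and gained *Tnnc1* (adjusted p = 0.00176 from 0.0526), and changed no other call among the 10 and the related genes. The paired exact test of the *Camk2a* share gave p = 0.25, the smallest that 3 pairs allow. DESeq2 gave no adjusted p for *Nfatc2*, whose low counts limit the precision. *Nfatc2* was too low to test with counts divided by 4 and with a filter of 1 CPM in at least 3 libraries.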
